A study of Mus musculus with 16 samples.

Results

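Gene expression in the Head of Fuz KO mouse embryos was compared with that in the Head of Gpr161 KO embryos at E10.5. The libraries were chosen by their labelled tissue part and genotype, which gave 4 of the 16 libraries of the series, 2 from Fuz KO Heads and 2 from Gpr161 KO Heads. The Head was the anterior of the embryo down to the third branchial arches, and the other libraries came from WT and DKO (Fuz and Gpr161) Heads and from the Tail, the region behind the forelimbs, of all genotypes. The genotypes are given as KO, with no strain, allele design, litter, parental cross or sex. Nothing in the labels tells separate embryos from repeat libraries within a group. The p-values below therefore measure only the spread within the groups of the series, pooled, which may be technical. The Gpr161 KO Heads, however, differed in sex and so were not repeats of 1 embryo. Each library was made from poly-A selected RNA of a whole embryo part, and in such bulk samples fewer cells of a type and less RNA per cell cannot be told apart.

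The primary cilium is a small antenna on most embryonic cells that controls Hedgehog signalling. When a Hedgehog ligand such as Shh binds the receptor Ptch1, the signal transducer Smo enters the cilium and the Gli transcription factors turn on target genes, among them Gli1, Ptch1 and Hhip. Without a ligand, Gli3 is cut in a cilium-dependent way into a repressor of the same targets. Fuz is a planar cell polarity effector of the CPLANE group, which builds cilia, and Gpr161 is a ciliary receptor that keeps protein kinase A active and so holds the pathway back. In the neural tube, Shh from the notochord and floor plate favours ventral fates, while Wnt and BMP ligands from the roof plate favour dorsal ones, and in the face the same pathway patterns the mesenchyme derived from the neural crest. The comparison sets a genotype that loses a builder of cilia against one that loses a brake on the pathway.

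The 4 libraries were of like depth, with 40795432 and 40086140 counts in the Fuz KO Heads and 40175538 and 41696394 counts in the Gpr161 KO Heads. Values are in CPM, the counts scaled to the TMM-adjusted total of each library, and a pair of values in 1 group is always given as library 1, then library 2. The 2 libraries of a group were not equally alike. Of the genes with a mean of at least 5 CPM in a group, 936 of 11299 differed by 2-fold or more between the Fuz KO libraries and 212 of 11464 between the Gpr161 KO libraries, against 18 of 11302 between the WT libraries. By Xist and Y-linked transcripts, both Fuz KO Heads and Gpr161 KO 1 were male, while Gpr161 KO 2 and both WT Heads were female. The Head label fitted the markers: 18 trunk Hox genes summed to 1.17 and 1.57 CPM in the Fuz KO Heads and to 1.16 and 1.19 CPM in the Gpr161 KO Heads, against 851 to 1162 CPM in the Tail libraries of both genotypes.

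The comparison was tested across 21284 genes with edgeR's quasi-likelihood test, fitted over all 16 libraries, and a gene was called at a Benjamini-Hochberg adjusted p under 0.05. The spread was thus pooled over all groups, most of them not compared here. The Fuz KO Heads were less alike than the Gpr161 KO or WT Heads, so the pooled p-values and errors may understate their spread. All log2 fold changes are Fuz KO over Gpr161 KO and carry a standard error (SE) from the same fit. The test called 1250 genes, 5.87% of those tested. Of these, 364 (1.71%) were higher and 886 (4.16%) were lower in the Fuz KO Heads. The lower genes included 517 that differed by 2-fold or more and 71 by 16-fold or more, against 184 and 28 of the higher genes. The median log2 fold change was 0.02 over all genes, 1.01 over the higher and -1.18 over the lower genes. When the 4 compared libraries alone were fitted, 34 genes were called. The number of calls rested heavily on single libraries: it was 581 without Fuz KO 1, 3442 without Fuz KO 2, 460 without Gpr161 KO 1 and 474 without Gpr161 KO 2. In each of these 4 fits, none of the 1250 genes had the opposite sign. All 1250 had groups that did not overlap, so leaving out 1 library could hardly turn a sign, and this is no test of robustness. The fit without Gpr161 KO 2 compares males alone, and with sex as a term 702 genes were called, 661 of them among the 1250. Only the Gpr161 KO groups, Head and Tail, held both sexes. The sex term therefore cannot be told apart from the difference between Gpr161 KO 1 and Gpr161 KO 2.

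The targeted genes followed the labels. Fuz had 0.909 and 1.66 CPM in the Fuz KO Heads, against 8.10 and 9.22 CPM in the Gpr161 KO Heads and 6.82 and 7.84 CPM in the WT Heads, a log2 fold change of -2.74 (SE 0.39, adjusted p = 0.00165). Gpr161 had 25.4 and 52.5 CPM in the Fuz KO Heads, against 4.21 and 4.31 CPM in the Gpr161 KO Heads and 55.0 and 54.0 CPM in the WT Heads, a log2 fold change of 3.19 (SE 0.37, adjusted p = 0.000519). Each targeted gene was thus lowest in its own knockout, with some reads left in both, and the deleted stretch of each gene is not given in the sources used here. Gpr161 in Fuz KO 1 was below its level in Fuz KO 2 and in both WT Heads.

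Among the ligands and the genes that release them, Shh stood apart. Shh, the main Hedgehog ligand of the early head, had 2.86 and 6.59 CPM in the Fuz KO Heads, against 109 and 149 CPM in the Gpr161 KO Heads and 27.1 and 31.5 CPM in the WT Heads. The log2 fold change was -4.77 (SE 0.36, adjusted p = 2.28e-05), the groups did not overlap, and WT lay between them. Of the 9 genes of this list, 3 were lower (Shh, Scube1 and Scube3) and 1 was higher (Scube2). Scube proteins are secreted and help to free lipid-modified ligand from the cells that make it. Scube2 had 15.0 and 6.64 CPM in the Fuz KO Heads, against 0.911 and 0.605 CPM in the Gpr161 KO Heads and 2.98 and 5.09 CPM in the WT Heads, a log2 fold change of 3.83 (SE 0.65, adjusted p = 0.00554). Scube1 had 90.9 and 135 CPM in the Fuz KO Heads, against 239 and 221 CPM in the Gpr161 KO Heads, a log2 fold change of -1.03 (SE 0.18, adjusted p = 0.00485). Scube3 had a log2 fold change of -0.83 (SE 0.19, adjusted p = 0.0241). The calls differed in how far they held. Scube2 had an adjusted p of 0.0524 without Gpr161 KO 1 and 0.0833 without Gpr161 KO 2, and Scube3 had 0.143 without Fuz KO 1 and 0.236 without Gpr161 KO 2. Hhat, which attaches palmitate to the ligand, had 9.01 and 9.39 CPM in the Fuz KO Heads, against 8.99 and 9.98 CPM in the Gpr161 KO Heads. Disp1, which exports the ligand, had 23.1 and 23.2 CPM in the Fuz KO Heads, against 28.5 and 25.6 CPM in the Gpr161 KO Heads, and did not pass the test. Ihh and Dhh, the other 2 ligands, were at most 0.517 CPM in these 4 libraries.

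Receptors that the pathway induces and that bind ligand away were lower in the Fuz KO Heads. Ptch1 had 135 and 97.6 CPM in the Fuz KO Heads, against 484 and 479 CPM in the Gpr161 KO Heads and 136 and 162 CPM in the WT Heads, a log2 fold change of -2.05 (SE 0.27, adjusted p = 0.00115). Hhip, a membrane protein that traps ligand, had 5.11 and 2.81 CPM in the Fuz KO Heads, against 40.8 and 58.8 CPM in the Gpr161 KO Heads and 10.6 and 11.4 CPM in the WT Heads (log2 -3.65, SE 0.37, adjusted p = 0.000188). For Hhip the WT Heads lay between the knockouts, whereas the Ptch1 level of Fuz KO 1 was close to that of WT 1.

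The co-receptors that present ligand to Ptch1 went the other way. Gas1 had 118 and 157 CPM in the Fuz KO Heads, against 52.5 and 45.5 CPM in the Gpr161 KO Heads and 195 and 175 CPM in the WT Heads, a log2 fold change of 1.49 (SE 0.17, adjusted p = 0.000307). Boc had 59.4 and 58.3 CPM in the Fuz KO Heads, against 13.9 and 16.5 CPM in the Gpr161 KO Heads and 45.1 and 49.2 CPM in the WT Heads, a log2 fold change of 1.95 (SE 0.23, adjusted p = 0.000497). Cdon had 102 and 98.5 CPM in the Fuz KO Heads, against 68.4 and 56.9 CPM in the Gpr161 KO Heads and 134 and 110 CPM in the WT Heads, a log2 fold change of 0.68 (SE 0.17, adjusted p = 0.0394). All 3 co-receptors were higher in the Fuz KO Heads without overlap, as 46.4% of all tested genes had groups that did not overlap in 1 direction or the other. Cdon lost its call without Fuz KO 1 (adjusted p = 0.123), Gpr161 KO 1 (0.0922) or Gpr161 KO 2 (0.269), and with sex as a term. The glypican Gpc3, which competes with Ptch1 for ligand, had 460 and 415 CPM in the Fuz KO Heads, against 685 and 702 CPM in the Gpr161 KO Heads (log2 -0.66, SE 0.12, adjusted p = 0.00504). Of the 9 receptors and co-receptors, 3 were therefore higher and 4 lower. Smo had 189 and 252 CPM in the Fuz KO Heads, against 274 and 274 CPM in the Gpr161 KO Heads, and did not pass the test (adjusted p = 0.187).

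Inside the cell, 5 of 26 transducers were called. Gli3, the source of the main repressor, had 135 and 155 CPM in the Fuz KO Heads, against 83.2 and 65.1 CPM in the Gpr161 KO Heads and 143 and 127 CPM in the WT Heads, a log2 fold change of 0.97 (SE 0.15, adjusted p = 0.00297). The other 4 called transducers were lower. Arrb1, a beta-arrestin, had 75.04 and 81.9 CPM in the Fuz KO Heads, against 142 and 147 CPM in the Gpr161 KO Heads (log2 -0.88, SE 0.13, adjusted p = 0.0024). Adcy5, an adenylyl cyclase that makes the cyclic AMP on which protein kinase A depends, had 4.88 and 8.11 CPM in the Fuz KO Heads, against 19.5 and 21.1 CPM in the Gpr161 KO Heads (log2 -1.64, SE 0.28, adjusted p = 0.00462). Adcy6, another cyclase, had a log2 fold change of -0.64 and Kctd11 one of -1.19. Adcy6 had an adjusted p of 0.0761 without Gpr161 KO 1. Gli2, the main activator, had 63.3 and 60.9 CPM in the Fuz KO Heads, against 43.03 and 49.0 CPM in the Gpr161 KO Heads, and did not pass the test, nor did Sufu, which binds Gli proteins. The list's median log2 fold change was -0.22, against 0.02 over all genes.

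The 43 genes of the CPLANE and cilium assembly list, which leaves out Fuz, gave no call by edgeR. At an unadjusted p under 0.05, which 22.1% of all tested genes reached, 5 were higher and 2 lower, and DESeq2, the other test run, called 1 higher. Without Fuz KO 2, edgeR called 3 lower. The list's log2 fold changes ran from -0.68 for Kif17, a ciliary motor subunit, to 0.55, with a median of 0.03.

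Of 17 Hedgehog target genes, 11 were called, all lower in the Fuz KO Heads. The list's median log2 fold change was -2.67, against 0.02 over all genes, and the fits without 1 of the 4 libraries made 9 to 11 lower calls. These were not always the same genes: without Fuz KO 1, Foxf1 and Foxd1 were not called, while Nkx2-9 (adjusted p = 0.000216) and Foxd2 (0.0334) were. Gli1, the transcription factor most often used as the pathway's readout, had 14.6 and 11.9 CPM in the Fuz KO Heads, against 80.3 and 88.9 CPM in the Gpr161 KO Heads and 36.4 and 43.7 CPM in the WT Heads. The log2 fold change was -2.67 (SE 0.19, adjusted p = 1.77e-05), and the WT Heads lay between the knockouts. Foxl1, Foxf1 and Foxf2 are forkhead factors of mesenchyme near a Hedgehog source. Foxl1 had 0.623 and 0.714 CPM in the Fuz KO Heads, against 26.7 and 53.8 CPM in the Gpr161 KO Heads and 7.87 and 5.58 CPM in the WT Heads (log2 -5.91, SE 0.46, adjusted p = 2.24e-05). Foxf2 had 3.27 and 4.57 CPM in the Fuz KO Heads, against 51.3 and 107 CPM in the Gpr161 KO Heads and 20.7 and 18.1 CPM in the WT Heads (log2 -4.33, SE 0.37, adjusted p = 6.88e-05). Foxf1 had 1.92 and 3.78 CPM in the Fuz KO Heads, against 17.6 and 46.5 CPM in the Gpr161 KO Heads (log2 -3.49, SE 0.54, adjusted p = 0.00403), and its adjusted p was 0.0704 without Fuz KO 1. Gpr161 KO 2 was above Gpr161 KO 1 for all 3 forkhead genes. Hsd11b2, which inactivates glucocorticoids, had 6.91 and 12.8 CPM in the Fuz KO Heads, against 59.1 and 68.9 CPM in the Gpr161 KO Heads and 23.6 and 21.7 CPM in the WT Heads (log2 -2.696, SE 0.24, adjusted p = 8.46e-05).

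Some other members of the target list had weaker calls or none. Nkx2-9 did not pass the test, with 2.62 and 0.0476 CPM in the Fuz KO Heads, against 17.5 and 16.1 CPM in the Gpr161 KO Heads. Its log2 fold change was nonetheless large, at -3.66 (SE 0.98, adjusted p = 0.0533). Foxd1, a factor of facial mesenchyme and forebrain, had 40.5 and 47.4 CPM in the Fuz KO Heads, against 116 and 180 CPM in the Gpr161 KO Heads (log2 -1.75, SE 0.36, adjusted p = 0.0166). Foxc2 had 26.9 and 11.1 CPM in the Fuz KO Heads, against 71.5 and 83.2 CPM in the Gpr161 KO Heads (log2 -2.03, SE 0.45, adjusted p = 0.0247). Both calls were lost with sex as a term. Foxd1 had an adjusted p of 0.172 without Fuz KO 1 and 0.135 without Gpr161 KO 2, and Foxc2 had 0.0612 without Fuz KO 2, 0.0859 without Gpr161 KO 1 and 0.129 without Gpr161 KO 2. The growth-related targets did not pass the test: Mycn, a proliferation factor, had 172 and 117 CPM in the Fuz KO Heads, against 133 and 99.3 CPM in the Gpr161 KO Heads. Ccnd1, a cyclin, had 177 and 275 CPM in the Fuz KO Heads, against 243 and 265 CPM in the Gpr161 KO Heads, so that the groups overlapped for both genes.

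**Figure D1:**
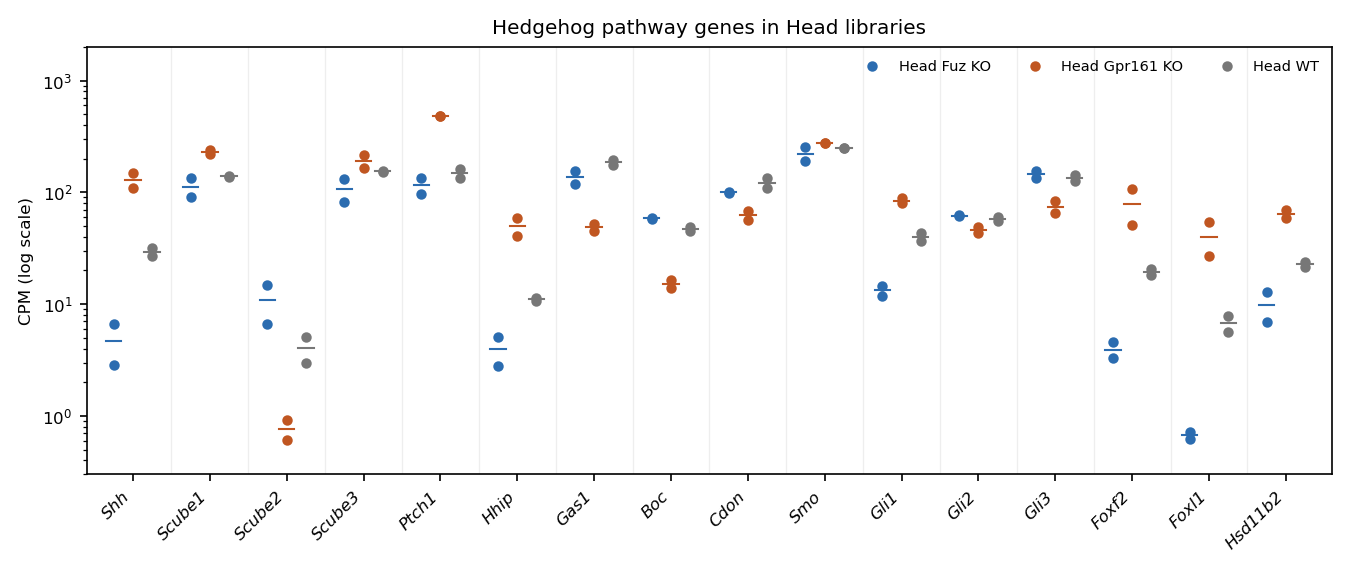
CPM (log scale) of 16 Hedgehog pathway genes in each Head library, with Fuz KO on the left, Gpr161 KO in the middle and WT on the right of each gene. Points are libraries and short lines are group means. Shh, Ptch1, Hhip, Gli1, Foxf2, Foxl1 and Hsd11b2 are lower in the Fuz KO than in the Gpr161 KO Heads, while Scube2, Gas1, Boc and Gli3 are higher.

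The floor plate, the ventral midline strip of the neural tube that makes Shh, gave 11 called members of 15, all lower in the Fuz KO Heads, and the fits without 1 of the 4 libraries made 10 or 11 lower calls. The median log2 fold change was -2.59. Foxa2, the factor that specifies the floor plate and itself a target of the pathway, had 2.91 and 1.38 CPM in the Fuz KO Heads, against 71.1 and 86.0 CPM in the Gpr161 KO Heads and 5.204 and 8.92 CPM in the WT Heads (log2 -5.20, SE 0.41, adjusted p = 2.67e-05). The related Foxa1 had 5.66 and 4.14 CPM in the Fuz KO Heads, against 39.1 and 61.4 CPM in the Gpr161 KO Heads and 7.90 and 11.9 CPM in the WT Heads (log2 -3.36, SE 0.36, adjusted p = 0.000251). For both genes the Fuz KO Heads were nearer to the WT than the Gpr161 KO Heads were. Ferd3l, a helix-loop-helix factor of floor plate progenitors, had 0.727 and 0.357 CPM in the Fuz KO Heads, against 17.0 and 21.5 CPM in the Gpr161 KO Heads and 2.15 and 2.699 CPM in the WT Heads (log2 -5.15, SE 0.52, adjusted p = 0.000178).

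Several secreted proteins of the midline were lower as well. Slit1, Slit2 and Slit3 repel axons from the midline. Slit2 had 41.8 and 47.9 CPM in the Fuz KO Heads, against 229 and 336 CPM in the Gpr161 KO Heads and 86.3 and 98.8 CPM in the WT Heads (log2 -2.66, SE 0.26, adjusted p = 0.000188). Slit3 had 27.8 and 22.2 CPM in the Fuz KO Heads, against 87.6 and 94.8 CPM in the Gpr161 KO Heads and 33.0 and 34.0 CPM in the WT Heads (log2 -1.87, SE 0.18, adjusted p = 0.00011). Slit1 had 21.1 and 8.68 CPM in the Fuz KO Heads, against 142 and 215 CPM in the Gpr161 KO Heads (log2 -3.59, SE 0.48, adjusted p = 0.00213). All 3 Slit genes had groups that did not overlap, as had all 1250 called genes and 46.4% of all tested genes in 1 direction or the other. Ntn1, which attracts commissural axons, had 85.6 and 44.7 CPM in the Fuz KO Heads, against 337 and 449 CPM in the Gpr161 KO Heads (log2 -2.59, SE 0.39, adjusted p = 0.00377). Spon1, an adhesive matrix protein of the floor plate, had 35.4 and 18.0 CPM in the Fuz KO Heads, against 342 and 483 CPM in the Gpr161 KO Heads (log2 -3.95, SE 0.50, adjusted p = 0.00165). Sulf1, a sulfatase that edits heparan sulfate, had 106 and 109 CPM in the Fuz KO Heads, against 518 and 713 CPM in the Gpr161 KO Heads and 203 and 200 CPM in the WT Heads (log2 -2.52, SE 0.16, adjusted p = 6.12e-06).

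Of the 23 genes of the ventral neural tube list, 6 were called, all lower, and the list's median log2 fold change was -1.49. Nkx2-4, a factor of the ventral forebrain, was not detected in either Fuz KO Head, against 14.1 and 14.6 CPM in the Gpr161 KO Heads and 3.34 and 2.35 CPM in the WT Heads. It was at least 385-fold lower in the Fuz KO Heads, taking a floor of 3 counts over the group, which covers counting error only. Nkx2-1, which specifies the hypothalamus and ventral telencephalon, had 1.14 and 4.99 CPM in the Fuz KO Heads, against 45.4 and 42.7 CPM in the Gpr161 KO Heads and 21.2 and 21.9 CPM in the WT Heads (log2 -3.84, SE 0.73, adjusted p = 0.018). Sim1, a hypothalamic and ventral interneuron factor, had 0.987 and 1.76 CPM in the Fuz KO Heads, against 12.1 and 15.5 CPM in the Gpr161 KO Heads and 5.25 and 4.74 CPM in the WT Heads (log2 -3.32, SE 0.34, adjusted p = 0.000188). For all 3 of these genes the WT Heads lay between the knockouts. The motor neuron gene Isl1 had 27.4 and 30.5 CPM in the Fuz KO Heads, against 44.5 and 54.8 CPM in the Gpr161 KO Heads (log2 -0.78, SE 0.20, adjusted p = 0.0389). Sim2 and Foxp1 were the other lower members.

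Ventral progenitor genes that did not pass the test were uneven between the Fuz KO libraries. Nkx6-1 had 19.6 and 7.23 CPM in the Fuz KO Heads, against 97.1 and 113 CPM in the Gpr161 KO Heads. Nkx2-2 had 1.56 and 0.428 CPM in the Fuz KO Heads, against 8.45 and 10.4 CPM in the Gpr161 KO Heads (adjusted p = 0.0596). Olig2, the motor neuron progenitor factor, had 5.71 and 18.0 CPM in the Fuz KO Heads, against 5.15 and 4.24 CPM in the Gpr161 KO Heads and 12.9 and 11.9 CPM in the WT Heads. Neither the Nkx genes nor Olig2 overlapped between the groups, as was so for 46.4% of all tested genes in either direction. The Nkx genes were lower in the Fuz KO Heads, whereas Olig2 was higher. The 6 calls of the ventral list fell to 2 without Gpr161 KO 1 and to 2 without Gpr161 KO 2. Nkx2-1 then had an adjusted p of 0.0871 and 0.0854, Sim2 one of 0.102 and 0.194, and Isl1 one of 0.0777 and 0.272. Without Fuz KO 1, Sim2 had 0.197 and Isl1 0.199.

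The calls among intermediate and dorsal neural genes were mostly higher. Of the 14 genes of the intermediate neural tube list, 6 were called, all higher in the Fuz KO Heads, with a list median log2 fold change of 2.07. Pax6, a factor of progenitors outside the ventral midline and of the eye, had 86.9 and 110 CPM in the Fuz KO Heads, against 2.69 and 4.72 CPM in the Gpr161 KO Heads and 74.2 and 72.3 CPM in the WT Heads (log2 4.73, SE 0.42, adjusted p = 0.000158). Sp8, a zinc finger factor of the forebrain and midbrain, had 30.6 and 29.7 CPM in the Fuz KO Heads, against 3.97 and 3.07 CPM in the Gpr161 KO Heads and 22.9 and 27.9 CPM in the WT Heads (log2 3.10, SE 0.24, adjusted p = 2.24e-05). Gsx2, of the lateral ganglionic eminence, had 2.99 and 3.81 CPM in the Fuz KO Heads, against 0.0493 and 0.0465 CPM in the Gpr161 KO Heads and 1.14 and 1.45 CPM in the WT Heads (log2 6.06, SE 0.96, adjusted p = 0.00369). For Pax6 and Sp8 the Fuz KO and WT Heads had levels of the same order, and the Gpr161 KO Heads were low. Prdm13, Evx1 and Evx2, of interneuron classes, were also called. The 6 calls fell to 3 without Gpr161 KO 1 and to 3 without Gpr161 KO 2, where Prdm13 had an adjusted p of 0.073 and 0.0784, and Evx1 one of 0.179 and 0.0641.

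Of the 30 genes of the dorsal neural tube list, 10 were higher and 1 (Bmp7) was lower. The median log2 fold change of the list was 1.59, or 1.47 with the 1 gene that had no count in a group set at its bound. The fits without 1 of the 4 libraries made 8 to 10 higher calls. Pax3, which marks dorsal progenitors and neural crest, had 55.8 and 39.5 CPM in the Fuz KO Heads, against 5.71 and 6.26 CPM in the Gpr161 KO Heads and 38.9 and 34.7 CPM in the WT Heads (log2 2.99, SE 0.17, adjusted p = 1.33e-06). Its paralog Pax7 had 19.8 and 22.5 CPM in the Fuz KO Heads, against 2.32 and 2.05 CPM in the Gpr161 KO Heads and 21.1 and 20.7 CPM in the WT Heads (log2 3.27, SE 0.36, adjusted p = 0.000259). Again the Gpr161 KO Heads were the low group, and the Fuz KO Heads were near the WT level. Of the zinc finger factors of the dorsal brain, Zic5 had a log2 fold change of 1.78 (SE 0.24) and Zic2 one of 1.36 (SE 0.23). Msx1 and Msx3, homeobox genes that respond to BMP, had log2 fold changes of 1.59 (SE 0.25) and 2.49 (SE 0.39), and the Wnt-enhancing R-spondins Rspo1 and Rspo3 had 1.66 (SE 0.23) and 1.92 (SE 0.28). Bmp7, a BMP ligand, had 32.9 and 35.8 CPM in the Fuz KO Heads, against 58.9 and 52.8 CPM in the Gpr161 KO Heads and 57.7 and 49.4 CPM in the WT Heads, so that here the Fuz KO Heads were the group away from WT. Its log2 fold change was -0.70 (SE 0.17, adjusted p = 0.032), and it was not called without Gpr161 KO 1 or without Gpr161 KO 2.

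**Figure D2:**
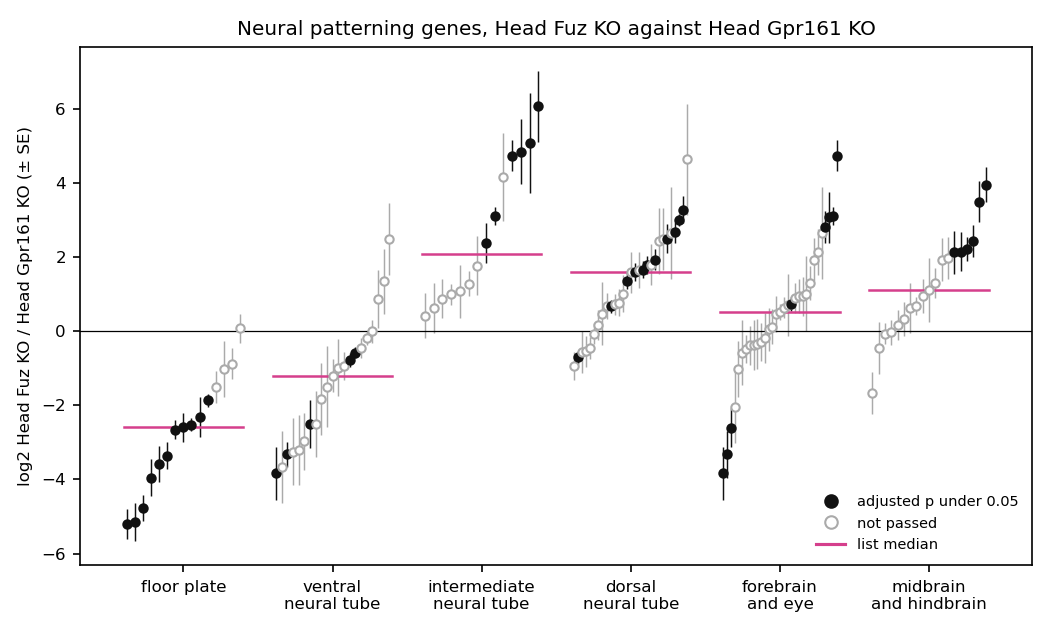
log2 fold change of Fuz KO over Gpr161 KO Heads (± SE) for every tested member of 6 neural lists, each point a gene and each line a list median over the points shown. Genes with no count in a group are left out, which are Nkx2-4, Mnx1 and Ptf1a. Filled points passed the test. The floor plate points lie below 0 with 1 exception and the intermediate neural tube points all lie above 0.

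Forebrain and eye genes had calls in both directions, with 5 higher and 3 lower among 31 and a median log2 fold change of 0.52. The higher ones were Pax6 and Sp8 (above), Wnt7b, Nr2e1 and Tcf7l2. Wnt7b, a Wnt ligand of the forebrain, had 32.2 and 76.6 CPM in the Fuz KO Heads, against 5.30 and 10.3 CPM in the Gpr161 KO Heads and 72.1 and 59.9 CPM in the WT Heads (log2 2.7996, SE 0.43, adjusted p = 0.00366). The lower ones were Nkx2-1 and the eye field and hypothalamus factors Six6 and Rax. Six6 had 0.675 and 2.21 CPM in the Fuz KO Heads, against 17.4 and 11.6 CPM in the Gpr161 KO Heads and 8.30 and 9.97 CPM in the WT Heads (log2 -3.32, SE 0.63, adjusted p = 0.0132). Rax had 1.38 and 1.55 CPM in the Fuz KO Heads, against 9.85 and 7.91 CPM in the Gpr161 KO Heads and 4.10 and 4.36 CPM in the WT Heads (log2 -2.60, SE 0.53, adjusted p = 0.0123). Both were below WT in the Fuz KO Heads. Their calls did not hold in all fits: Six6 had an adjusted p of 0.052 without Fuz KO 1 and 0.0832 without Gpr161 KO 1, and Rax had 0.0759 and 0.0793. The list had 3 higher calls in each fit without a Gpr161 KO library. It had 1 lower call without Fuz KO 1, 6 without Fuz KO 2, none without Gpr161 KO 1 and 2 without Gpr161 KO 2.

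The Fuz KO libraries differed from each other over the forebrain and eye list as a whole: the median log2 difference from the WT Heads was -1.59 in Fuz KO 1 and -0.09 in Fuz KO 2, against -0.75 in Gpr161 KO 1 and -1.16 in Gpr161 KO 2. Lhx2, an early forebrain and eye factor, had 8.57 and 39.01 CPM in the Fuz KO Heads, against 48.1 and 23.3 CPM in the Gpr161 KO Heads and 81.2 and 68.8 CPM in the WT Heads. Emx2, of the dorsal telencephalon, had 3.17 and 15.0 CPM in the Fuz KO Heads, against 6.68 and 6.47 CPM in the Gpr161 KO Heads and 27.9 and 27.7 CPM in the WT Heads. Both genes were below WT in all 4 knockout libraries. They are not among the genes that the naming rule picks and were chosen after their values were seen.

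Of the 19 midbrain and hindbrain genes, 6 were called, all higher in the Fuz KO Heads, with a median log2 fold change of 1.11. The isthmus between midbrain and hindbrain is a signalling centre that makes FGFs. Fgf8, its main organising signal, had 34.8 and 20.1 CPM in the Fuz KO Heads, against 7.02 and 4.75 CPM in the Gpr161 KO Heads and 13.5 and 16.3 CPM in the WT Heads (log2 2.22, SE 0.32, adjusted p = 0.00185). Fgf17 had 30.3 and 23.8 CPM in the Fuz KO Heads, against 2.51 and 2.28 CPM in the Gpr161 KO Heads and 8.64 and 12.8 CPM in the WT Heads (log2 3.49, SE 0.56, adjusted p = 0.00391). Cnpy1, which promotes FGF signalling at the isthmus in zebrafish, had 149 and 72.6 CPM in the Fuz KO Heads, against 5.32 and 9.01 CPM in the Gpr161 KO Heads and 23.9 and 37.0 CPM in the WT Heads (log2 3.95, SE 0.46, adjusted p = 0.000762). For these 3 genes WT lay between the knockouts. En2, an engrailed factor of the same region, had 98.4 and 72.5 CPM in the Fuz KO Heads, against 11.3 and 20.3 CPM in the Gpr161 KO Heads and 31.5 and 36.5 CPM in the WT Heads (log2 2.43, SE 0.43, adjusted p = 0.00695). Hes3, a Notch effector that keeps isthmic progenitors undifferentiated, is in the progenitor and Notch list and is not among these 6 genes. It had 22.9 and 11.9 CPM in the Fuz KO Heads, against 0.542 and 0.419 CPM in the Gpr161 KO Heads and 3.36 and 3.54 CPM in the WT Heads (log2 5.17, SE 0.78, adjusted p = 0.00308). Pax5 and Pax8, paired-box factors of the isthmus, had log2 fold changes of 2.15 (SE 0.53) and 2.13 (SE 0.58). In all 5 of these isthmic genes (Fgf8, Fgf17, Cnpy1, En2 and Hes3) Fuz KO 1 was the higher of the Fuz KO libraries. The 6 calls fell to 3 without Fuz KO 1 and without Gpr161 KO 2 and to 2 without Gpr161 KO 1, and were 9 without Fuz KO 2. Fgf17 had an adjusted p of 0.0502 without Gpr161 KO 1 and 0.0561 without Gpr161 KO 2, En2 one of 0.0541 without Fuz KO 1 and 0.087 without Gpr161 KO 1. Pax5 and Pax8 were called neither without Fuz KO 1 (0.196 and 0.301), nor without Gpr161 KO 1 (0.166 and 0.17), nor without Gpr161 KO 2 (0.253 and 0.275).

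The calls among FGF and Wnt pathway genes were mostly higher. Of 20 FGF signalling genes, 6 were called, all higher in the Fuz KO Heads, with a median log2 fold change of 0.29. Il17rd, a feedback inhibitor induced by FGF, had 132 and 144 CPM in the Fuz KO Heads, against 57.8 and 55.8 CPM in the Gpr161 KO Heads and 97.0 and 106 CPM in the WT Heads (log2 1.28, SE 0.14, adjusted p = 0.000217). Etv4, a transcription factor turned on by FGF, had 23.6 and 30.4 CPM in the Fuz KO Heads, against 10.1 and 12.1 CPM in the Gpr161 KO Heads and 26.0 and 21.1 CPM in the WT Heads (log2 1.29, SE 0.17, adjusted p = 0.000827). The groups did not overlap for either gene, as for all 1250 called genes. Spry2 and Etv5 were the other higher members beside Fgf8 and Fgf17, and 4 members were called without Gpr161 KO 1 and 3 without Gpr161 KO 2, where Etv5 had an adjusted p of 0.204. Of 31 Wnt genes, 8 were higher and 1 was lower (median log2 0.27). Wnt7a had 25.1 and 17.2 CPM in the Fuz KO Heads, against 3.10 and 4.70 CPM in the Gpr161 KO Heads and 11.8 and 13.8 CPM in the WT Heads (log2 2.43, SE 0.24, adjusted p = 0.000121). Wnt3 had 12.3 and 13.8 CPM in the Fuz KO Heads, against 1.13 and 2.44 CPM in the Gpr161 KO Heads and 11.5 and 9.55 CPM in the WT Heads (log2 2.86, SE 0.33, adjusted p = 0.000387). These are ligands. Axin2, a feedback target that reads out Wnt signalling through beta-catenin, had 73.2 and 62.8 CPM in the Fuz KO Heads, against 40.9 and 45.4 CPM in the Gpr161 KO Heads and 76.3 and 66.4 CPM in the WT Heads (log2 0.66, SE 0.14, adjusted p = 0.0147). The lower member was the secreted Wnt inhibitor Dkk1, with 4.91 and 6.71 CPM in the Fuz KO Heads, against 18.5 and 14.5 CPM in the Gpr161 KO Heads and 9.87 and 10.51 CPM in the WT Heads (log2 -1.50, SE 0.24, adjusted p = 0.00351). The Wnt list had 5 higher calls without Gpr161 KO 1.

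BMP and TGF-beta genes had 2 higher and 4 lower calls of 28 and a median log2 fold change of -0.45. Tgfb2, a ligand, had 6.31 and 10.54 CPM in the Fuz KO Heads, against 34.8 and 34.6 CPM in the Gpr161 KO Heads and 25.1 and 24.6 CPM in the WT Heads (log2 -2.04, SE 0.22, adjusted p = 0.000286). Tgfb1 had 13.1 and 9.87 CPM in the Fuz KO Heads, against 23.8 and 26.0 CPM in the Gpr161 KO Heads and 15.9 and 13.0 CPM in the WT Heads (log2 -1.12, SE 0.20, adjusted p = 0.00504). For Tgfb2 the Fuz KO Heads were away from WT, and for Tgfb1 the Gpr161 KO Heads were. The 4 lower calls fell to 2 without Gpr161 KO 1 and were 6 without Fuz KO 2, and the 2 higher calls (Gdf10 and Tbx2) were 1 without Fuz KO 1, none without Gpr161 KO 1, 1 without Gpr161 KO 2 and 3 without Fuz KO 2. Tbx2 was called in none of these 4 fits, with adjusted p-values from 0.0558 to 0.152.

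Of 16 retinoic acid genes, 2 were higher and 1 was lower. Crabp1, which binds retinoic acid in the cytoplasm, had 1023 and 609 CPM in the Fuz KO Heads, against 299.7 and 315 CPM in the Gpr161 KO Heads and 536 and 622 CPM in the WT Heads (log2 1.41, SE 0.20, adjusted p = 0.00143). Aldh1a2, which makes retinoic acid, had 0.208 and 1.62 CPM in the Fuz KO Heads, against 8.82 and 5.96 CPM in the Gpr161 KO Heads and 2.51 and 2.91 CPM in the WT Heads (log2 -2.99, SE 0.52, adjusted p = 0.00812). The binding protein was thus higher and the enzyme lower in the Fuz KO Heads, but Aldh1a2 had an adjusted p of 0.0719 without Gpr161 KO 1, and the other higher member, Crabp2, had 0.0818 without Gpr161 KO 2.

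Planar cell polarity, the pathway to which Fuz was first assigned, had 5 called members of 25, all lower in the Fuz KO Heads, with a median log2 fold change of -0.44. Vangl1, a core transmembrane component, had 13.9 and 12.2 CPM in the Fuz KO Heads, against 39.5 and 34.8 CPM in the Gpr161 KO Heads and 19.4 and 15.3 CPM in the WT Heads (log2 -1.51, SE 0.18, adjusted p = 0.000516). Dact1, a Dishevelled-binding regulator, had 32.9 and 23.0 CPM in the Fuz KO Heads, against 58.3 and 77.8 CPM in the Gpr161 KO Heads and 33.7 and 34.0 CPM in the WT Heads (log2 -1.28, SE 0.22, adjusted p = 0.00415). In both genes the Gpr161 KO Heads were above WT. Daam1, Celsr1 and Prickle1 had log2 fold changes of -0.84, -0.67 and -1.07. The list had 3 calls without Fuz KO 1, 9 without Fuz KO 2, 2 without Gpr161 KO 1 and 3 without Gpr161 KO 2. Daam1 had an adjusted p of 0.0596 without Gpr161 KO 1, Celsr1 had 0.0523 without Fuz KO 1, 0.0719 without Gpr161 KO 1 and 0.137 without Gpr161 KO 2, and Prickle1 had 0.138, 0.0563 and 0.147.

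Among 41 genes of the craniofacial neural crest and branchial arches, 8 were higher and 6 lower (median log2 0.64). Lhx8, of oral mesenchyme and the ventral forebrain, had 16.3 and 27.3 CPM in the Fuz KO Heads, against 1.72 and 2.56 CPM in the Gpr161 KO Heads and 17.4 and 16.9 CPM in the WT Heads (log2 3.34, SE 0.51, adjusted p = 0.00285). Tfap2b, of the neural crest, had 44.7 and 63.6 CPM in the Fuz KO Heads, against 17.8 and 22.6 CPM in the Gpr161 KO Heads and 74.4 and 65.1 CPM in the WT Heads (log2 1.42, SE 0.24, adjusted p = 0.00433). The Gpr161 KO Heads were the low group for both. The lower members included the forkhead genes Foxf1 and Foxf2 described above and Foxc1, with 46.4 and 49.9 CPM in the Fuz KO Heads, against 95.2 and 114 CPM in the Gpr161 KO Heads and 71.1 and 69.7 CPM in the WT Heads (log2 -1.12, SE 0.19, adjusted p = 0.00391). The 8 higher calls fell to 3 without Gpr161 KO 1 and to 4 without Gpr161 KO 2, and the 6 lower ones to 3 without Gpr161 KO 1.

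The lists of the cranial sense organs and pigment cells were short. Over all tested genes, 1.71% were called higher and 4.16% lower. Of 17 otic vesicle genes, 3 were higher (Dlx5, Oc90 and Pax8) and 1 was lower (Spp1), and there was no higher call without Fuz KO 1 or without Gpr161 KO 1 and 1 without Gpr161 KO 2. Spp1 had an adjusted p of 0.0633 without Fuz KO 1 and 0.0553 without Gpr161 KO 2. Of 10 pigment cell genes that were tested, Trpm1, a channel of melanocytes and the retina, was the 1 called. It had 1.56 and 9.54 CPM in the Fuz KO Heads, against 0.0985 and 0.186 CPM in the Gpr161 KO Heads and 19.2 and 17.0 CPM in the WT Heads (log2 5.25, SE 1.07, adjusted p = 0.0164), and it lost its call without Gpr161 KO 1 (adjusted p = 0.155) or Gpr161 KO 2 (0.128). The knockouts were both below WT, with the Gpr161 KO Heads the lower.

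The calls among skeletal progenitor and matrix genes were lower in the Fuz KO Heads, with 1 exception. Of 19 sclerotome and cartilage genes tested, 7 were called, all lower, with a median log2 fold change of -0.78. Nkx3-2, a factor of early cartilage, had 0.519 and 0.381 CPM in the Fuz KO Heads, against 2.02 and 5.70 CPM in the Gpr161 KO Heads and 1.28 and 1.48 CPM in the WT Heads (log2 -3.10, SE 0.51, adjusted p = 0.00366). Pax9, which responds to Hedgehog in sclerotome and facial mesenchyme, had 7.11 and 5.73 CPM in the Fuz KO Heads, against 17.6 and 16.1 CPM in the Gpr161 KO Heads and 8.59 and 8.26 CPM in the WT Heads (log2 -1.39, SE 0.29, adjusted p = 0.0148). The list had 4 calls without Fuz KO 1, 3 without Gpr161 KO 1 and 2 without Gpr161 KO 2, and Pax9 had an adjusted p of 0.0836 and 0.0553 in the fits without Gpr161 KO 1 and without Gpr161 KO 2. Of 28 extracellular matrix genes, 14 were lower and 1 (Fbln2) was higher, with a median log2 fold change of -0.89. Fbn2, a fibrillin of microfibrils, had 197 and 195 CPM in the Fuz KO Heads, against 447 and 524 CPM in the Gpr161 KO Heads and 276 and 257 CPM in the WT Heads (log2 -1.31, SE 0.12, adjusted p = 7.01e-05). The basement membrane collagen gene Col4a1 had 331 and 390 CPM in the Fuz KO Heads, against 769 and 765 CPM in the Gpr161 KO Heads and 467 and 443 CPM in the WT Heads (log2 -1.09, SE 0.14, adjusted p = 0.000827), and its neighbour Col4a2 had a log2 fold change of -1.14 (SE 0.14). For these fibrillin and collagen genes WT lay between the knockouts. Tnc, an adhesion-modulating glycoprotein, had 3.56 and 1.64 CPM in the Fuz KO Heads, against 34.8 and 45.9 CPM in the Gpr161 KO Heads and 7.27 and 6.01 CPM in the WT Heads (log2 -3.96, SE 0.58, adjusted p = 0.00306). The matrix list had 8 lower calls without Fuz KO 1, 9 without Gpr161 KO 1 and 7 without Gpr161 KO 2.

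**Figure D3:**
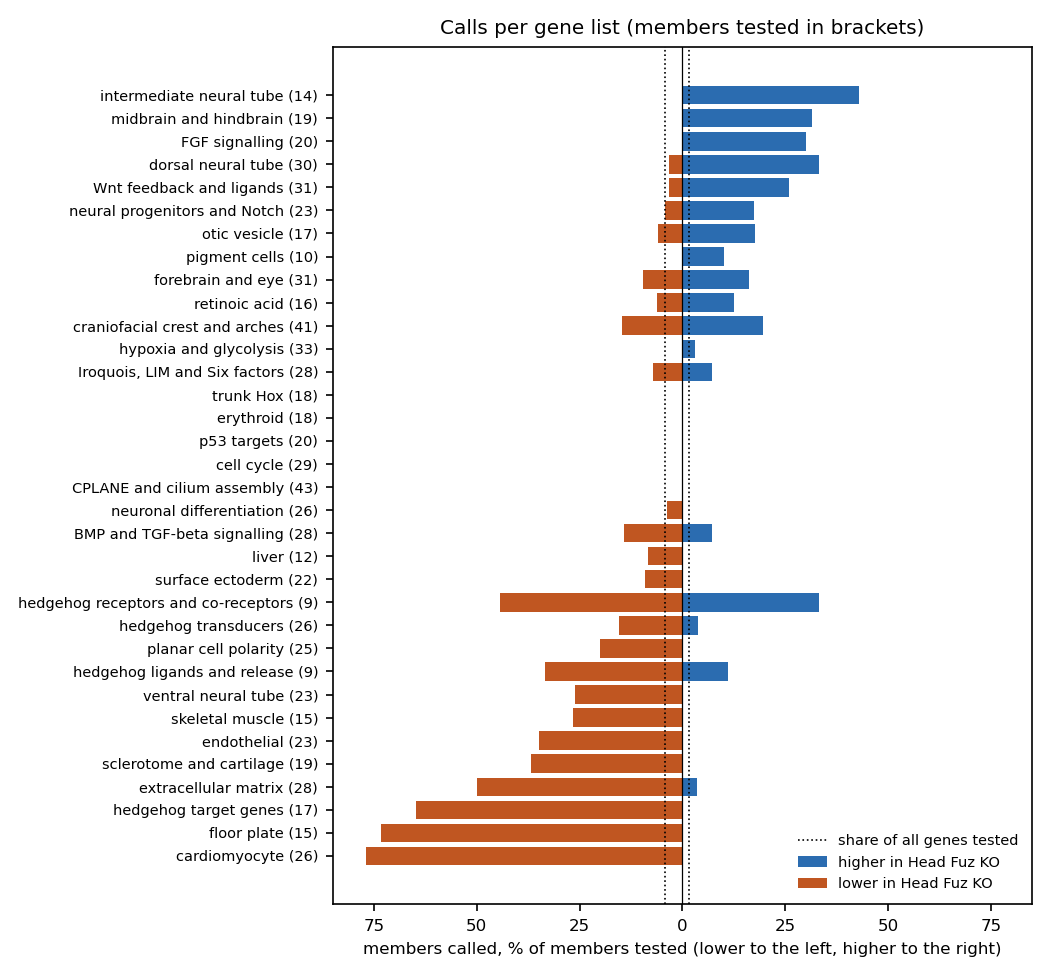
Share of the tested members of each of 34 gene lists that were called higher (right, blue) or lower (left, orange) in the Fuz KO than in the Gpr161 KO Heads, with the number tested in brackets. The dotted lines mark the shares of all genes, 1.71% higher and 4.16% lower. The lower calls are densest in the cardiomyocyte (20 of 26), floor plate (11 of 15) and Hedgehog target (11 of 17) lists, and the higher calls in the intermediate neural tube list (6 of 14), followed by the dorsal neural tube (10 of 30) and the Hedgehog receptor and co-receptor (3 of 9) lists.

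The list with the lowest median log2 fold change was that of cardiac muscle genes. The heart lies next to the branchial arches at this stage, and the labels do not say how it was handled in the dissection. Of 26 cardiomyocyte genes, 20 were called, all lower, with a median log2 fold change of -6.39. The list summed to 46.8 and 15.3 CPM in the Fuz KO Heads, against 3028 and 677 CPM in the Gpr161 KO Heads and 18.3 and 25.6 CPM in the WT Heads. Both Gpr161 KO Heads were high, library 1 more so, and the Fuz KO Heads were at the level of the WT Heads. Myh6, the atrial myosin heavy chain, had 0.831 and 0.499 CPM in the Fuz KO Heads, against 326 and 55.9 CPM in the Gpr161 KO Heads and 0.471 and 0.329 CPM in the WT Heads (log2 -8.17, SE 0.91, adjusted p = 0.000907). Myl2, the ventricular light chain, had 0 and 0.119 CPM in the Fuz KO Heads, against 159 and 33.1 CPM in the Gpr161 KO Heads and 0 and 0.305 CPM in the WT Heads (log2 -10.53, SE 1.28, adjusted p = 0.00137). Xirp1, an intercalated disc protein, had no count in either Fuz KO or WT Head, against 15.3 and 4.10 CPM in the Gpr161 KO Heads, and was at least 256-fold lower in the Fuz KO Heads. Each of these genes repeats the order of the list, with Gpr161 KO 1 above Gpr161 KO 2. Tbx20, a cardiac transcription factor also found in hindbrain motor neurons, had 1.53 and 1.14 CPM in the Fuz KO Heads, against 57.2 and 42.4 CPM in the Gpr161 KO Heads and 3.54 and 7.60 CPM in the WT Heads (log2 -5.22, SE 0.58, adjusted p = 0.000511). The cardiac calls numbered 8 without Fuz KO 1, 13 without Fuz KO 2, 12 without Gpr161 KO 1 and 20 without Gpr161 KO 2, and Xirp1 had an adjusted p of 0.111 without Fuz KO 1 and 0.0808 without Gpr161 KO 1.

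The part of cardiac tissue in the other differences was not tested, but its defining markers were low in the Fuz KO Heads, at a sum of 29.8 and 6.68 CPM, against 1797 and 380.3 CPM in the Gpr161 KO Heads. Myl2 was the 1 defining marker at 0 in Fuz KO 1. With the cardiomyocyte genes removed before scaling, 1224 genes were called, all among the 1250. The skeletal muscle list, which shares contractile genes with it, had 4 lower calls of 15, among them Des, Tnni2 and Myf5. Myf5, the earliest myogenic factor, had 0.467 and 0.0476 CPM in the Fuz KO Heads, against 4.36 and 4.56 CPM in the Gpr161 KO Heads and 1.35 and 0.986 CPM in the WT Heads (log2 -4.13, SE 0.78, adjusted p = 0.00876).

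Of 23 endothelial genes, 8 were called, all lower in the Fuz KO Heads, and 15 did not pass, with a median log2 fold change of -0.66. The list summed to 625 and 504 CPM in the Fuz KO Heads, against 1007 and 853 CPM in the Gpr161 KO Heads and 576 and 546 CPM in the WT Heads. Cdh5, the cadherin of endothelial junctions, had 45.2 and 61.0 CPM in the Fuz KO Heads, against 139.6 and 117 CPM in the Gpr161 KO Heads and 75.3 and 61.1 CPM in the WT Heads (log2 -1.27, SE 0.15, adjusted p = 0.000371). Vwf, of endothelial storage granules, had 14.0 and 12.8 CPM in the Fuz KO Heads, against 34.8 and 30.7 CPM in the Gpr161 KO Heads (log2 -1.29, SE 0.18, adjusted p = 0.00165). The 8 calls were 5 without Fuz KO 1 and 3 without Gpr161 KO 1. The erythroid list summed to 4407 and 5577 CPM in the Fuz KO Heads, against 7978 and 10788 CPM in the Gpr161 KO Heads and 9667 and 7749 CPM in the WT Heads. The summed levels did not overlap, but edgeR called none of its 18 genes. At an unadjusted p under 0.05, which 22.1% of all tested genes reached in either direction, 7 were lower, and DESeq2 called 5 lower. In edgeR, 3 were called lower without Fuz KO 2 and 16 with no filter on low counts. Hba-x, an embryonic globin, had 1148 and 1074 CPM in the Fuz KO Heads, against 2049 and 2747 CPM in the Gpr161 KO Heads (adjusted p = 0.109).

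Liver and surface ectoderm lists gave 1 and 2 lower calls. The median log2 fold change of the 12 liver genes tested was 0.25, or 0.07 with the genes that had no count in a group set at their bound. The 4 defining liver markers summed to 0.623 and 2.19 CPM in the Fuz KO Heads, against 0.0985 and 0.651 CPM in the Gpr161 KO Heads and 9.37 and 4.45 CPM in the WT Heads. Alb was at 0 in both Fuz KO Heads and in Gpr161 KO 2, as was Afp in both Fuz KO Heads. The called liver gene was Apob, a lipoprotein that the yolk sac and embryonic heart also make, with 0.623 and 1.07 CPM in the Fuz KO Heads, against 11.2 and 8.66 CPM in the Gpr161 KO Heads (log2 -3.54, SE 0.56, adjusted p = 0.00313). Cdh1, the epithelial cadherin, had 38.5 and 39.6 CPM in the Fuz KO Heads, against 77.2 and 67.3 CPM in the Gpr161 KO Heads and 41.1 and 38.7 CPM in the WT Heads (log2 -0.89, SE 0.19, adjusted p = 0.0177). Its call was lost without Fuz KO 1 (adjusted p = 0.0903), Gpr161 KO 1 (0.128) or Gpr161 KO 2 (0.0526).

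**Figure D4:**
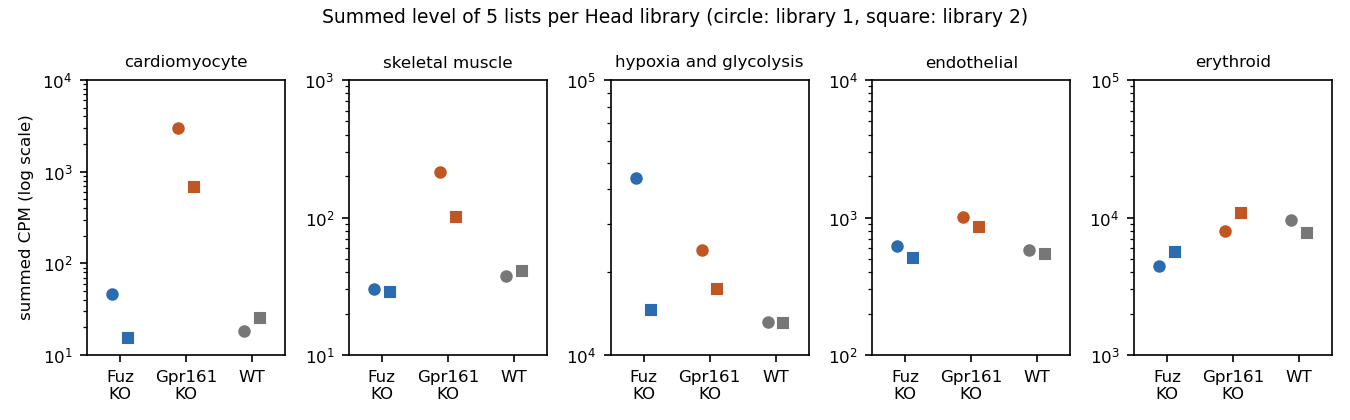
Summed CPM (log scale) of 5 gene lists in each Head library, with Fuz KO left, Gpr161 KO in the middle and WT right in each panel. Circles are library 1 and squares library 2 of a group. The cardiomyocyte list is high in both Gpr161 KO Heads, and the hypoxia and glycolysis list is highest in Fuz KO 1.

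Genes induced by low oxygen differed more between the 2 Fuz KO libraries than between the groups. The 33 genes of the hypoxia and glycolysis list summed to 43919 and 14619 CPM in the Fuz KO Heads, against 24011 and 17385 CPM in the Gpr161 KO Heads and 13143 and 13091 CPM in the WT Heads. The median log2 difference from WT was 2.33 in Fuz KO 1 and 0.15 in Fuz KO 2, against 1.22 in Gpr161 KO 1 and 0.49 in Gpr161 KO 2. Library 1 was the higher in both knockouts. The edgeR test called 1 member, the carbonic anhydrase Car12, with 19.7 and 16.0 CPM in the Fuz KO Heads, against 4.93 and 3.00 CPM in the Gpr161 KO Heads and 8.90 and 8.73 CPM in the WT Heads (log2 2.17, SE 0.45, adjusted p = 0.0144). Car12 was lost without Fuz KO 1 (adjusted p = 0.0835), Gpr161 KO 1 (0.0508) or Gpr161 KO 2 (0.148). With no filter on low counts, 22 members were called, all higher. The part of these levels in the differences above was not tested. With both Fuz KO 1 libraries, Head and Tail, left out, 963 genes were called, 669 of them among the 1250, and the Hedgehog target and floor plate lists had 12 and 11 lower calls.

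Cell cycle, p53 target and neuronal differentiation genes gave almost no calls. With 5.87% of all tested genes called, lists of this size would hold few calls at that share. For the 29 cell cycle genes edgeR called none, 2 were higher and 2 lower at an unadjusted p under 0.05 (22.1% over all genes), and DESeq2 called none. Without Fuz KO 2, and likewise with no filter, edgeR called 2 lower. Their log2 fold changes ran from -0.48 to 0.38. For the 20 p53 targets edgeR called none, 2 were higher at an unadjusted p under 0.05, and DESeq2 called 2 higher. EdgeR called 1 higher without Fuz KO 1, 3 higher and 2 lower without Fuz KO 2, and 4 higher with no filter. Bbc3, a p53-induced death factor, had 39.96 and 11.2 CPM in the Fuz KO Heads, against 15.4 and 12.5 CPM in the Gpr161 KO Heads and 12.4 and 10.7 CPM in the WT Heads, with Fuz KO 1 alone standing apart. Of 26 neuronal differentiation genes, Isl1 was the 1 called, while with no filter edgeR called 2 higher and 6 lower. The progenitor and Notch list of 23 genes had 4 higher calls (Pax6, Hes3, Hes5 and Fabp7) and 1 lower call (Notch2), with a median of 0.09. Without Gpr161 KO 1, Hes5 (adjusted p = 0.164), Fabp7 (0.21) and Notch2 (0.0504) were not called. Hes5 was not called without Fuz KO 1 (0.167) or Gpr161 KO 2 (0.131), Fabp7 without Fuz KO 1 (0.0593) or Fuz KO 2 (0.119), and Notch2 without Gpr161 KO 2 (0.0685).

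A large higher difference outside these groups was that of a pseudogene. Rpl34-ps1, annotated as a processed pseudogene of a ribosomal protein gene, had 54.4 and 39.6 CPM in the Fuz KO Heads, against 1.77 and 1.21 CPM in the Gpr161 KO Heads and 33.3 and 36.1 CPM in the WT Heads (log2 4.98, SE 0.27, adjusted p = 1.31e-06). It had 1.96 and 2.53 CPM in the DKO Heads, so that it was low in every Head library that carries the Gpr161 knockout. Reads of a processed pseudogene can be shared with its parent gene, and its counts are therefore uncertain.

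The same comparison was made in the Tail, where the test called 84 genes (0.395%), 36 (0.169%) higher and 48 (0.226%) lower in the Fuz KO Tails, and 59 of them were also among the 1250 of the Head. For the Hedgehog targets the Tail had 9 lower calls of 17 and a median log2 fold change of -2.34, against 11 and -2.67 in the Head. Gli1 had 28.3 and 20.0 CPM in the Fuz KO Tails, against 114 and 130.1 CPM in the Gpr161 KO Tails, a log2 fold change of -2.34 (SE 0.19, adjusted p = 7.18e-05). Ptch1 had 157 and 101 CPM in the Fuz KO Tails, against 545 and 532 CPM in the Gpr161 KO Tails, a log2 fold change of -2.06 (SE 0.27, adjusted p = 0.0042). The floor plate list had 4 lower calls in the Tail and a median of -1.13, against 11 and -2.59 in the Head. The cardiomyocyte list had no call by edgeR in the Tail, with a median of 0.65.

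The difference between the Head and the Tail log2 fold changes was itself tested and called 43 genes (0.202%), 8 above 0 (0.0376%) and 35 below (0.164%). It called 24 without Head Fuz KO 1, 106 without Head Fuz KO 2, 18 without Head Gpr161 KO 1, 61 without Head Gpr161 KO 2, 97 without Tail Fuz KO 1, 17 without Tail Fuz KO 2, 6 without Tail Gpr161 KO 1 and 4 without Tail Gpr161 KO 2. With the replicate number within a genotype as a block, which pairs the Head and Tail libraries of 1 number, it called 384, 39 of them the same. Sulf1 was 106 and 109 CPM in the Fuz KO Heads, against 518 and 713 CPM in the Gpr161 KO Heads, but 100.4 and 76.4 CPM in the Fuz KO Tails, against 134 and 112 CPM in the Gpr161 KO Tails. The Head log2 fold change minus that of the Tail was -2.04 (SE 0.22, adjusted p = 0.00547). Shh had 7.14 and 8.59 CPM in the Fuz KO Tails, against 34.0 and 37.2 CPM in the Gpr161 KO Tails, a log2 fold change of -2.18, and the Head value minus the Tail value was -2.60 (SE 0.45, adjusted p = 0.0429). Shh was thus lower in the Fuz KO samples of both regions. Sim1 had 7.07 and 9.95 CPM in the Fuz KO Tails, against 5.52 and 3.38 CPM in the Gpr161 KO Tails, a log2 fold change of 0.93, and the difference between regions was -4.26 (SE 0.46, adjusted p = 0.00547).

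Above 0, Sp8 had 30.6 and 22.4 CPM in the Fuz KO Tails, against 20.4 and 21.5 CPM in the Gpr161 KO Tails, so that its Head difference exceeded that of the Tail by 2.76 (SE 0.32, adjusted p = 0.00634). Trh, the precursor of thyrotropin-releasing hormone, had 41.1 and 10.9 CPM in the Fuz KO Heads, against 2.91 and 2.91 CPM in the Gpr161 KO Heads, and 0.464 and 0.519 CPM in the Fuz KO Tails, against 5.12 and 2.69 CPM in the Gpr161 KO Tails. It was called in both regions with opposite signs, at a log2 fold change of 3.16 (SE 0.50, adjusted p = 0.00306) in the Head and -2.98 (SE 0.54, adjusted p = 0.0333) in the Tail, and the difference was 6.14 (SE 0.73, adjusted p = 0.00634). Wnt7a, Wnt3 and Rspo3 also had a larger Head than Tail log2 fold change, by 2.23 to 2.54. Of the named genes, Sim1, Sulf1, Sp8 and Trh kept the call of the difference in all 8 fits that each left out 1 library. Wnt7a kept it in 4 of the 8, and Wnt3 and Rspo3 in 2 each. The call for Shh was lost in 6 of the 8, with an adjusted p of up to 0.221.

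**Figure D5:**
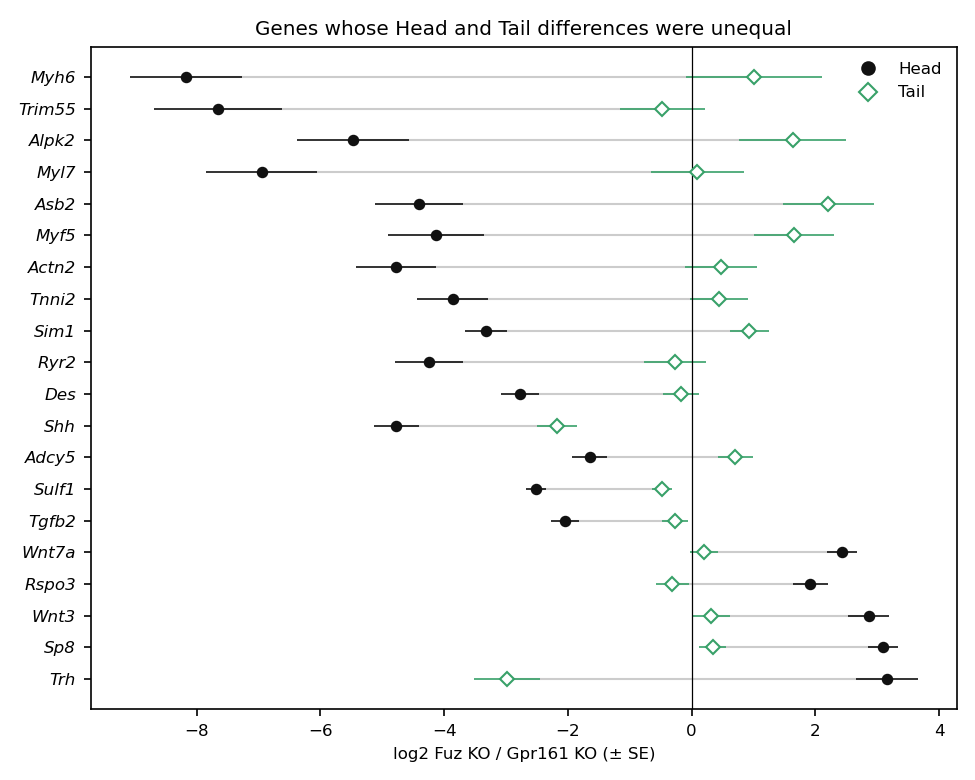
log2 fold change of Fuz KO over Gpr161 KO (± SE) in the Head (filled circles) and the Tail (open diamonds) for 20 named genes whose difference between regions was called. The cardiac genes at the top are far below 0 in the Head and near or above 0 in the Tail, Shh is below 0 in both, and Trh has opposite signs.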

How the data were processed

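RNA was extracted from embryo parts with a Trizol-based kit and DNase, and poly-A libraries were made with NEBNext Ultra RNA, per the labels' protocols. The deposited values are raw counts per gene, 1 table per library, which the authors had not normalized. Listed without a role, per the submitters' processing notes, are HTSeq, featureCounts 1.6.0, StringTie 2.0.4, Picard 2.20.4, STAR 2.7.1a, Trimmomatic and FastQC, with the build GRCm39. Counter, strand setting and annotation are not given there, so overlapping and antisense genes cannot be told apart. Identifiers were matched to GENCODE M21 for names alone (54809 of 54838), and no coordinates are given.

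Counts of all 16 libraries in 8 groups of 2 were filtered with filterByExpr and fitted in 1 robust quasi-likelihood model after TMM scaling (edgeR 4.0.16, R 4.3.3; F-test), with 8 residual degrees of freedom. P-values were adjusted by Benjamini-Hochberg over the 21284 genes in each of 3 comparisons (Head, Tail and Head minus Tail), and a gene was called under 0.05. The SE is the log2 fold change divided by the square root of F. Sex was read from Xist (under 50 CPM called male) with Y-linked transcripts.

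Lists (36, with 708 distinct symbols, 1 not found and 2 found through another symbol) were written from general knowledge. They share genes. The members and lists were chosen with earlier results of these data known. The naming rule took Fuz, Gpr161 and the Hedgehog ligand, receptor and target lists. It added the 12 higher and 12 lower genes with the largest fold change among named, called genes whose groups did not overlap and whose higher group averaged 5 CPM or more, up to 5 called members per list, and 5 genes of each sign for the difference between regions. A list without a call was shown by its most changed member. The rule named 148 genes, 128 of them called, not all of which are reported here, and other genes named were chosen after their values were seen. Members that were called and fall outside the rule are named to complete a count.

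Same-numbered Head and Tail libraries deviated together within each genotype. The r of the difference between numbers across genes was 0.437 for Fuz KO, 0.196 for Gpr161 KO, 0.282 for DKO and 0.133 for WT. Between genotypes r ran from -0.0787 (Head WT with Head DKO) to 0.302 (Head Fuz KO with Head DKO), which is above the Gpr161 KO, DKO and WT values. These r values therefore do not settle whether the number pairs the regions. The replicate block within a genotype assumes that the number pairs the regions, which the labels do not state.

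On simulated data for Head Fuz KO against Head Gpr161 KO with 50 genes changed per size among 21284, the share recovered by edgeR was 58% for a log2 change of 1, 88% for 2, 96% for 3 and 100% for 4, beside 9 false calls. DESeq2 1.42.0 recovered 80%, 92%, 98% and 100%, beside 51 false calls. The changed genes were drawn from those averaging at least 1 CPM over the 4 compared libraries. Every group was given the same spread per gene, whereas the real groups were not equally alike. These shares and false calls may therefore not hold for the comparison itself. The alternatives were RLE scaling, other filters, Head libraries alone, the 4 libraries alone, a replicate block, removal of haemoglobin and mitochondrial or of cardiomyocyte genes, DESeq2, sex as a term and leaving out libraries. Leaving out both Gpr161 KO 1 libraries was added after seeing the data. A library left alone in its group took its spread from the remaining groups.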

Additional observations from a re-analysis of the deposited data

Results flagged for a closer look

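For 20 named genes the Head and Tail log2 fold changes of Fuz KO over Gpr161 KO differed by a direct test of the difference (Head minus Tail, edgeR, adjusted p under 0.05). The genes of contractile and muscle tissue were Myh6 (-9.18), Trim55 (-7.18), Alpk2 (-7.10), Myl7 (-7.05), Asb2 (-6.62), Myf5 (-5.78), Actn2 (-5.25), Tnni2 (-4.31), Ryr2 (-3.98) and Des (-2.60). The cardiomyocyte list summed to 46.8 and 15.3 CPM in the Fuz KO Heads, against 3028 and 677 CPM in the Gpr161 KO Heads, and to 46.8 and 181 CPM in the Fuz KO Tails, against 99.0 and 73.5 CPM in the Gpr161 KO Tails. None of these 10 genes was called in more than 3 of the 8 fits without 1 library, and with the Head and Tail libraries paired by number Myf5 (adjusted p = 0.14), Actn2 (0.149) and Des (0.165) were not called.

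Among genes of neural patterning and signalling, Sim1 (-4.26), Shh (-2.60), Adcy5 (-2.35), Sulf1 (-2.04) and Tgfb2 (-1.78) had a Head minus Tail value below 0. Wnt7a (2.23), Rspo3 (2.23), Wnt3 (2.54), Sp8 (2.76) and Trh (6.14) had one above 0. The paired fit kept these 10 calls, with adjusted p-values between 0.000115 and 0.00842. Sim1, Sulf1, Sp8 and Trh kept their call in all 8 fits without 1 library. Wnt7a kept it in 4 of the 8, and Shh, Adcy5, Tgfb2, Rspo3 and Wnt3 in 2 each, so these 5 held no better than the muscle genes.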

How the results depend on the processing

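The Head comparison called 1250 genes. It called 2436 (964 higher, 1472 lower) with no filter on low counts, 649 (181 and 468) with Head libraries alone, 34 (13 and 21) with the 4 libraries alone, 2455 (1015 and 1440) by DESeq2, 702 (147 and 555) with sex as a term and 365 (56 and 309) without both Gpr161 KO 1 libraries. A filter of 5 CPM gave 555 higher and the replicate block 568 higher. Samples that share a number across genotypes are not known to be paired, and the replicate block called 1782 in all, 1243 of them the same. Leaving out 1 library gave 460 to 3442 calls (71 to 1457 higher, 389 to 1985 lower). The share of calls that were higher was 29.1%, and 41.3% by DESeq2, 39.6% with no filter, 42.3% without Fuz KO 2 and 15.4% without Gpr161 KO 1. None of the 1250 genes changed sign under any alternative in which it was tested. As the groups of all 1250 did not overlap, leaving out 1 library could hardly have changed a sign.

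The difference between regions called 43 genes, against 541 (102 above 0, 439 below) with no filter, 258 (49 and 209) by DESeq2 and 384 (64 and 320) with the replicate block that pairs Head with Tail. Leaving out 1 library gave 4 to 106 calls (2 to 34 above, 2 to 83 below). Of the 128 named genes that were called, 78 were called in all 4 fits without 1 library, 112 with sex as a term and 128 by DESeq2. The 16 lost with sex as a term were Scube3, Cdon, Foxc2, Foxd1, Sim2, Isl1, Evx1, Pax5, Pax8, Dlx5, Etv5, Celsr1, Prickle1, Col11a1, Car12 and Lhx6. As only the Gpr161 KO groups held both sexes, this term cannot be told apart from the difference between Gpr161 KO 1 and Gpr161 KO 2. Of the named genes that were not called, 4 changed sign: over the 4 fits without 1 library the log2 fold change of Hhat ran from -0.119 (without Gpr161 KO 1) to 0.0406 (without Gpr161 KO 2), passing 0.0043 without Fuz KO 1. Without Fuz KO 2 and without Fuz KO 1, Ccnd1 was -0.537 and 0.136, Rasl11b -0.363 and 0.0972, and Bbc3 1.503 and -0.292. Without both Fuz KO 1 libraries they were 0.113, 0.0744 and -0.315. With the 4 libraries alone, 8 floor plate and 5 Hedgehog target genes were called. The cause of these changes was not tested. With 2 libraries a group and library totals of like size, the simulation recovered 58% of genes at a log2 change of 1. It changed only genes averaging at least 1 CPM and gave all groups the same spread per gene.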
